A study of Mus musculus with 24 samples.

Results

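Bone morphogenetic protein (BMP) signalling was described through 10 genes chosen by name. They were the ligand Bmp4, the antagonist Nog, the receptors Bmpr1a, Bmpr1b and Bmpr2, the transducer Smad1 and the target genes Id1, Id2, Id3 and Id4. All 10 were present among the 23306 genes of the deposited expression table. The RNA came from the dentate gyrus, a hippocampal region that makes neurons throughout adult life. All mice were female C57BL6 animals of the cross Tg(Nestin-cre/ERT2)::RPL22HA/WT, also called Nes-CreERT2::RiboTag. Each received tamoxifen at 160 mg/kg daily for 5 days from an age of 9 to 11 weeks, so that controls carried the same transgenes and drug. Tamoxifen lets the Cre recombinase add a haemagglutinin tag to the ribosomal protein Rpl22 in cells that use the Nestin promoter. Tagged ribosomes, with the RNA on them, were then pulled down (IP). The Nestin promoter is active in neural stem cells and the tag passes to their descendants, so the IP holds a population of cells and not 1 cell type.

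The groups were IP of running mice, IP of sedentary mice, input of running mice and input of sedentary mice, each at a treatment time of 11, 18 and 27 days. Running mice were housed singly with a wheel, and sedentary mice had the same cage with the wheel glued. Each of the 12 groups held 2 libraries, which gave 12 IP and 12 input libraries. Replicate letters are a or b for day 11, c or d for day 18 and e or f for day 27. The labels name immature neurons as the IP tissue and the dentate gyrus as the input tissue. They do not give the number of mice per library, nor whether replicate libraries were from separate animals. They also do not say whether IP and input libraries with the same title code came from the same tissue. The p-values therefore measure the spread between these libraries, which may be technical.

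BMP ligands bind a complex of type 1 receptors (Bmpr1a, Bmpr1b) and type 2 receptors (Bmpr2). The complex phosphorylates Smad1 and its relatives, which enter the nucleus and switch on the Id genes. Id proteins lack a DNA-binding region and hold helix-loop-helix factors that drive neuronal differentiation in inactive pairs, and Noggin, the product of Nog, traps BMP ligands outside the cell. In the adult dentate gyrus, BMP signalling is known for keeping stem cells quiescent.

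The upstream sequences of the Id genes are shown because Smad complexes are known to act on Id genes through short elements near the gene start. Of the 10 genes, 8 were matched in the RefSeq promoter table of build GRCm38.p6, and Id1 and Nog were not. The 250 bases before the start were searched on both strands for GGCGCC, an element of BMP-responsive Id enhancers that reads the same on both strands, and for CAGAC, a Smad-binding box that reads GTCTG on the other strand. The motifs overlapped nowhere in the Id sequences below, which run 5′ to 3′ on the strand of the gene, with the motifs in capitals. They cover chr12:25096093-25096342 on the minus strand for Id2, chr4:136143572-136143821 on the plus strand for Id3 and chr13:48260866-48261115 on the plus strand for Id4.
Id2: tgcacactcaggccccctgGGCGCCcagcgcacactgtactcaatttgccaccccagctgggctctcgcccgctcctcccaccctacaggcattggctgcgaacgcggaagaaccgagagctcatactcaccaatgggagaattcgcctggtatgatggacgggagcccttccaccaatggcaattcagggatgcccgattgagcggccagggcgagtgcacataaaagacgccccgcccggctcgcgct
Id3: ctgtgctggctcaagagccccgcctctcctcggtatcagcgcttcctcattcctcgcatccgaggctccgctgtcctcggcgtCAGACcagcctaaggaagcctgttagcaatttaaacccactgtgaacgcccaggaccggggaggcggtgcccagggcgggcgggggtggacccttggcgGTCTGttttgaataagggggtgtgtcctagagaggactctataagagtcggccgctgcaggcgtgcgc
Id4: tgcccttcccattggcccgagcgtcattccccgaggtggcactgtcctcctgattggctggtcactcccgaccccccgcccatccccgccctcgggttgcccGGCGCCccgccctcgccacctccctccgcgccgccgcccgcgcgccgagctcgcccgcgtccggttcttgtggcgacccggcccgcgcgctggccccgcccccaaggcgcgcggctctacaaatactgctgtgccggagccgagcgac
The Id2 sequence held GGCGCC once, ending 225 bases before the RefSeq gene start, and the Id4 sequence held it once, ending 142 bases before it. The Id3 sequence held CAGAC once on each strand, ending 162 and 63 bases before the start, and no GGCGCC. Bmpr1a and Bmpr2 also held GGCGCC once each, ending 192 and 99 bases before the start. Of 3 Bmpr1b promoters in the table, 2 held CAGAC, and the promoters of Bmp4 and Smad1 held neither motif. All these distances are counted from the RefSeq start, and the gene boundaries of GENCODE M21 differ. The GENCODE gene of Id2 or Id3 includes the whole sequence shown, as do those of Bmpr1a, Bmpr1b and Bmpr2 for theirs, and the GENCODE gene of Id4 starts beyond the end of the sequence shown. Of 27025 mouse promoters of the same length, 9.54% held GGCGCC and 42.1% held CAGAC, so a match is a description of the letters and not a binding site.

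The labelled tissue of the IP was checked against marker lists. All 14 of 14 neural stem cell markers, 10 of 10 dividing-cell markers and 10 of 10 immature-neuron markers were higher in IP than in input, while 10 of 10 interneuron markers and 9 of 10 microglial markers were lower. Of 12 astrocyte markers, 5 were higher and 4 lower, and of 12 endothelial markers 6 were lower and none higher. These counts took an adjusted p under 0.05 by limma, the test described below. Over all 19507 genes tested, 41.4% were higher and 28.5% lower. Summed stem cell markers ranged from 926 to 1695 TPM in IP libraries and from 544 to 735 TPM in input libraries. TPM gives transcript abundance per gene length as a share of a fixed total, so levels can be compared between genes but read depth is not known. The 1122 olfactory receptor genes, known for expression in the nose, averaged 3.10 ± 0.942 TPM per gene in IP libraries and 6.19 ± 5.09 TPM in input libraries (SD, n = 12 each). On days 11, 18 and 27 their input averages were 1.99 ± 1.61, 12.3 ± 3.43 and 4.24 ± 1.27 TPM (SD, n = 4 each). The RNA component Rpph1 took 4.58% to 17.4% of the total in IP libraries, highest in running replicate a of day 11, and 2.37% to 5.85% in input libraries.

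In IP, Id4, Bmpr2 and Id2 were the most abundant of the 10 genes, at 154 ± 31.4, 144 ± 15.1 and 141 ± 43.1 TPM (SD, n = 12 each). These 3 overlapped in level across libraries, and every library of Id2, the lowest of them, lay above all libraries of the next gene, Bmpr1a. Bmpr1a averaged 45.8 ± 7.38 TPM and Smad1 averaged 36.6 ± 4.01 TPM. Id3 at 17.2 ± 4.74 TPM, Bmpr1b at 17.0 ± 3.22 TPM and Id1 at 10.3 ± 2.14 TPM formed the next step. Bmp4 and Nog came last at 1.98 ± 0.621 and 1.85 ± 0.709 TPM, below the mean of the olfactory receptor genes in the same libraries. In input the order was Bmpr2, Id2, Id4, Bmpr1a, Smad1, Bmpr1b, Id3, Id1, Nog and Bmp4, and Bmpr2 was above Id2 in 12 of 12 libraries. Within the Id family, Id4 made up 47.9% ± 4.98 and Id2 43.4% ± 6.06 of the summed Id TPM in IP, against 41.5% ± 5.68 and 48.7% ± 5.05 in input (SD, n = 12 each). Id1 made up 3.22% and Id3 5.49% of the sum in IP, against 3.04% and 6.82% in input.

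**Figure D1:**
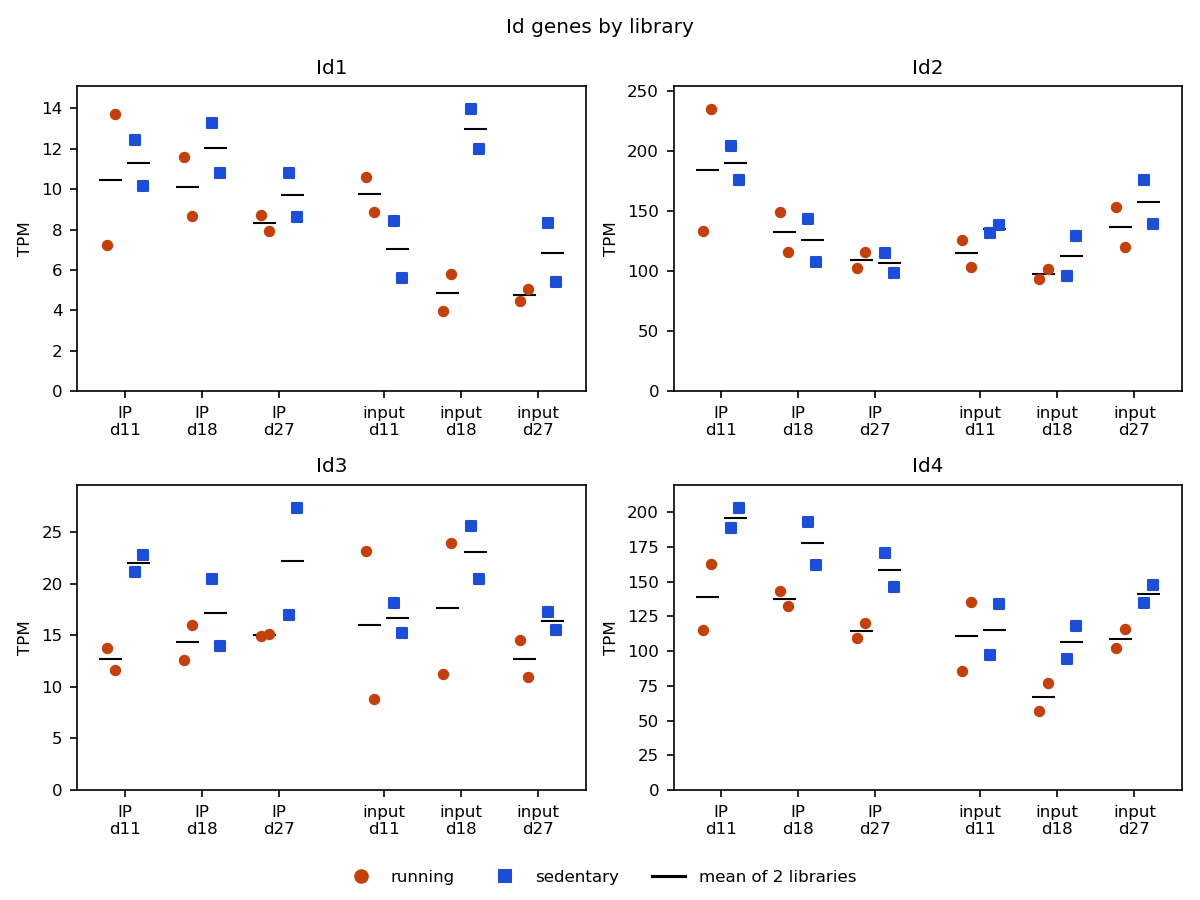
TPM of Id1, Id2, Id3 and Id4 in each library, with IP left of input, days from 11 to 27 and running (circles) left of sedentary (squares) within each day; the short line is the mean of 2 libraries. Id2 in IP stood highest at day 11, and Id4 in IP was lower in both running libraries than in both sedentary libraries at each of the 3 days. The Id4 running difference in IP did not pass the test, and how many of all genes separate in this way was not counted.

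IP against input asks which transcripts were on ribosomes of the Nestin-lineage cells relative to the whole tissue. Smad1, Id4 and Id1 were higher in IP and Nog and Bmpr2 were lower, and the other 5 genes did not pass the test. Differences are given as log2(TPM + 1), which understates the change of low genes, and the test was limma with Benjamini-Hochberg adjustment over all genes. At an adjusted p under 0.05, 5 of the 10 genes were called, against 69.9% of 19507 genes tested (41.4% higher and 28.5% lower), so their share was not above the background. The median difference was 0.04 over the 10 genes and 0.12 over all genes tested. Median-of-ratios scaling of the table moved the median of all genes by -0.24, and 40.0% of called genes were then higher in IP, against 8077 of 13631 called genes as deposited. In such bulk libraries, a larger share of cells of a type and more RNA per cell cannot be told apart.

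The ligand Bmp4 ranged from 1.07 to 3.35 TPM in IP, with a median of 1.83 TPM, and from 0.58 to 4.45 TPM in input, with a median of 2.41 TPM. The groups overlapped, and the difference of -0.21 ± 0.18 (SE) had an adjusted p of 0.296 by limma. Bmp4, at chr14:46383520-46390669 on the minus strand, overlaps the gene model Gm15217 on the other strand. The sources used here do not give the strand setting of the counting, so their reads may not have been separated. Without sedentary input replicate d of day 18, where Bmp4 had its lowest value, the difference was -0.36 with an adjusted p of 0.0304.

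Nog, at chr11:89300638-89302332 on the minus strand, encodes the BMP antagonist Noggin. It ranged from 0.74 to 3.33 TPM in IP, with a median of 1.91 TPM, and from 2.25 to 5.71 TPM in input, with a median of 3.66 TPM. Of the 12 IP libraries, 10 lay below the lowest input library. How common such a separation is over all genes was not counted. The difference was -0.81 ± 0.14 (SE) with an adjusted p of 4.96e-05 by limma. Over all days, olfactory receptor genes were also lower on average in IP. Their input average was lowest at day 11 and highest at day 18. The Nog difference was -0.90 at day 11, -0.59 at day 18 and -0.94 at day 27. The part of the olfactory receptor background in the Nog difference was not tested.

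The 3 receptors differed little between the fractions. Bmpr2, the type 2 receptor, at chr1:59763400-59879014 on the plus strand, ranged from 114 to 171 TPM in IP, with a median of 144 TPM, and from 125 to 188 TPM in input, with a median of 173 TPM. The groups overlapped widely, and the difference was -0.19 ± 0.07 (SE) with an adjusted p of 0.0183 by limma. It missed the threshold without the letter a libraries of day 11, at -0.15 with an adjusted p of 0.0830. The type 1 receptor Bmpr1a averaged 45.8 ± 7.38 TPM in IP and 44.4 ± 6.65 TPM in input (SD, n = 12 each), a difference of 0.04 ± 0.09 (SE) with an adjusted p of 0.710 by limma. Bmpr1b, the other type 1 receptor, averaged 17.0 ± 3.22 TPM in IP and 18.7 ± 2.34 TPM in input, a difference of -0.14 ± 0.07 (SE) with an adjusted p of 0.104, or 0.0481 without input running replicate a of day 11. Median-of-ratios scaling gave -0.24 for Bmpr1a with an adjusted p of 0.0105 and -0.40 for Bmpr1b with an adjusted p of 0.000127, so that both were then called lower in IP.

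Smad1, the transducer that activated receptors phosphorylate, at chr8:79338395-79399518 on the minus strand, was the gene whose fractions did not overlap. It ranged from 28.6 to 44.2 TPM in IP, with a median of 36.4 TPM, and from 14.7 to 24.6 TPM in input, with a median of 22.5 TPM. All 12 IP libraries were above every input library. The share of all genes with such a separation was not counted, and 69.9% of genes tested were called in this comparison. The difference was 0.73 ± 0.07 (SE), with an adjusted p of 1.33e-08 by limma, and it was 0.46 under median-of-ratios scaling, where it was also called.

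Among the Id genes, Id4 ranged from 109 to 203 TPM in IP, with a median of 154 TPM, and from 57.0 to 148 TPM in input, with a median of 109 TPM. It was higher in IP for 11 of 12 pairs of libraries with the same title code, and 6 IP libraries were above the highest input library. The difference was 0.52 ± 0.09 (SE) with an adjusted p of 3.87e-05 by limma, and 0.24 under median-of-ratios scaling. Id1 ranged from 7.21 to 13.7 TPM in IP, with a median of 10.5 TPM, and from 3.94 to 14.0 TPM in input, with a median of 7.05 TPM. The input values were spread over a wider range and held the IP values inside it. The Id1 difference was 0.44 ± 0.11 (SE) with an adjusted p of 0.00192 by limma, and 0.19 with an adjusted p of 0.0966 under median-of-ratios scaling, which ends the call. Id2 and Id3 differed by 0.14 ± 0.10 and 0.04 ± 0.14 (SE), with adjusted p of 0.197 and 0.837 by limma. Under median-of-ratios scaling both signs turned, to -0.14 for Id2 and -0.23 for Id3, without a call. Leaving out IP running replicate a of day 11 gave Id2 an adjusted p of 0.0361, at 0.21. The Id4 gene lies within chr13:48261228-48266026 on the plus strand of GRCm38, the assembly of mm10, and overlaps 2 gene models on the other strand, A330033J07Rik and Gm49291.

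**Figure D2:**
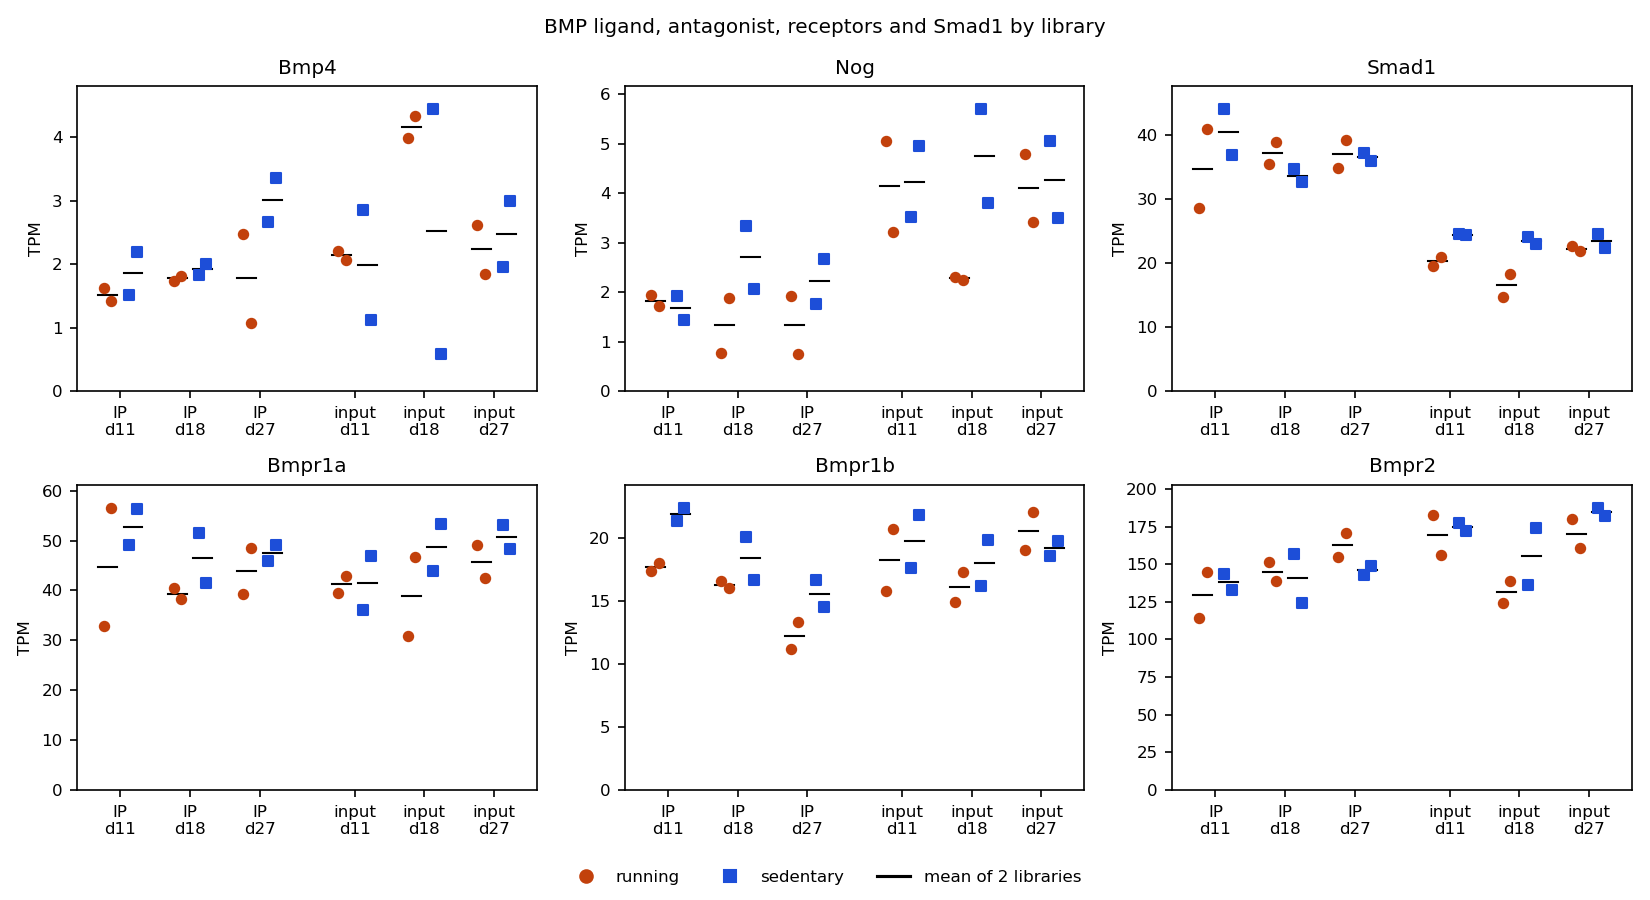
TPM of Bmp4, Nog, Smad1, Bmpr1a, Bmpr1b and Bmpr2 in each library, laid out with IP left of input and running left of sedentary within each day; the short line is the mean of 2 libraries. All 12 IP libraries of Smad1 lie above all 12 input libraries, and Bmpr1b in IP is lowest at day 27.

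Taken day by day, the difference between IP and input depended on the day for Id2, Id4 and Bmpr1b. An F test of that dependence in limma called these 3 of 10 genes, against 37.4% of 19507 genes, with adjusted p of 0.00836 for Id2, 0.0286 for Id4 and 0.0322 for Bmpr1b. At day 11, 5 of 10 genes were called (background 41.2%, with 29.2% higher and 12.1% lower), with Id2, Id4 and Smad1 higher and Bmpr2 and Nog lower in IP. At day 18, 3 of 10 were called (background 64%, with 33% higher and 31% lower), with Id4 and Smad1 higher and Nog lower. At day 27, 5 of 10 were called (background 48.9%, with 34.6% higher and 14.3% lower), with Id1 and Smad1 higher and Id2, Bmpr1b and Nog lower. Smad1 and Nog were thus called in the same direction at all 3 days. The Nog call at day 18, at -0.59 with an adjusted p of 0.0445, was lost without any of 5 day 18 libraries, with adjusted p between 0.0772 without input running replicate d and 0.196 without IP running replicate c; the others were IP sedentary replicate d and input replicates c of both groups. It was also just lost, at 0.0501, 0.0506 and 0.0501, without input running replicate e, sedentary replicate e or sedentary replicate f of day 27. The Id1 call at day 27, at 0.58 with an adjusted p of 0.0209, was lost without IP running replicate e (0.0547), IP sedentary replicate e (0.0775), input running replicate e (0.0599) or input sedentary replicate f (0.107). Without IP running replicate a of day 11, Id1 and Bmpr1a were also called higher at day 11, with adjusted p of 0.0316 and 0.0412, and Id1 at day 18, with 0.0463. Bmp4 at day 18 was called lower without input sedentary replicate d of day 18, at -0.90 with an adjusted p of 0.00660, against -0.45 with an adjusted p of 0.207 over all libraries. Id1 at day 18 was also called without IP running replicate b of day 11 (0.0466) or input running replicate d of day 18 (0.0440). The Bmpr2 call at day 11, at -0.37 with an adjusted p of 0.0171, was lost without IP running replicate a (0.0767), IP sedentary replicate b (0.0645) or input running replicate a (0.0587). Under median-of-ratios scaling 47.7%, 37.0% and 43.6% of called genes were higher in IP at days 11, 18 and 27.

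Id2 crossed over between the fractions. At day 11 it had 133 and 235 TPM in IP of running mice and 204 and 176 TPM in IP of sedentary mice, against 126, 103, 131 and 138 TPM in the 4 input libraries. Of the 4 IP libraries, 3 were above every input library, and running replicate a was within their range. The difference was 0.56 ± 0.17 at day 11, 0.30 ± 0.17 at day 18 and -0.43 ± 0.17 at day 27 (SE), with adjusted p of 0.0105, 0.127 and 0.0382 by limma. At day 27 the IP libraries had 102 and 116 TPM in running mice and 115 and 98.5 TPM in sedentary mice, against 153, 120, 176 and 139 TPM in input. All 4 IP libraries were then below all 4 input libraries. How many of all genes separate in this way on 1 day was not counted, here or for Id4 and Bmpr1b below. Median-of-ratios scaling ended the day 11 call, at 0.29 with an adjusted p of 0.126, as did leaving out IP running replicate b, at 0.0948. The day 27 call was lost without IP running replicate e (0.103) or f (0.0520), IP sedentary replicate f (0.121), input running replicate e (0.147) or input sedentary replicate e (0.144).

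Id4 was 0.56 ± 0.16 higher in IP at day 11 and 0.89 ± 0.16 higher at day 18 (SE), with adjusted p of 0.00712 and 6.56e-05 by limma. At day 27 its difference was 0.12 ± 0.16 with an adjusted p of 0.543. At day 18 the IP libraries had 143 and 133 TPM in running mice and 193 and 162 TPM in sedentary mice, against 57.0, 76.7, 94.6 and 118 TPM in input. The fractions did not overlap at that day. Day 18 input libraries were also those with the highest olfactory receptor level. Without the day 18 libraries only days 11 and 27 were compared. A moderated t test in limma then gave adjusted p of 0.0660 for Id2, 0.374 for Id4 and 0.171 for Bmpr1b. Leaving out that day does not test the olfactory receptor background. The Id4 call at day 11 was lost under median-of-ratios scaling (0.29, adjusted p 0.160) and without IP running replicate b (0.0537).

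Single libraries also ended the F test calls of Id4 and Bmpr1b. For Id4 these were replicates c of day 18 (all 4 groups), IP running replicate e, IP sedentary replicate f and input replicates f of both groups at day 27, with adjusted p from 0.0555 to 0.0755. For Bmpr1b these were replicates c of day 18 (all 4 groups), IP sedentary replicate b of day 11, and at day 27 IP running replicate e, IP sedentary replicate f, input running replicate f and input sedentary replicates e and f, with adjusted p from 0.0520 to 0.0920. The Id2 call held with any 1 library left out. Bmpr1b differed by 0.06 ± 0.13 at day 11, 0.02 ± 0.13 at day 18 and -0.50 ± 0.13 at day 27 (SE), the last with an adjusted p of 0.00366. At day 27 Bmpr1b had 11.2 and 13.3 TPM in IP of running mice and 16.7 and 14.5 TPM in IP of sedentary mice. In input it had 19.1 and 22.1 TPM in running mice and 18.6 and 19.8 TPM in sedentary mice, with no overlap between the fractions.

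**Figure D3:**
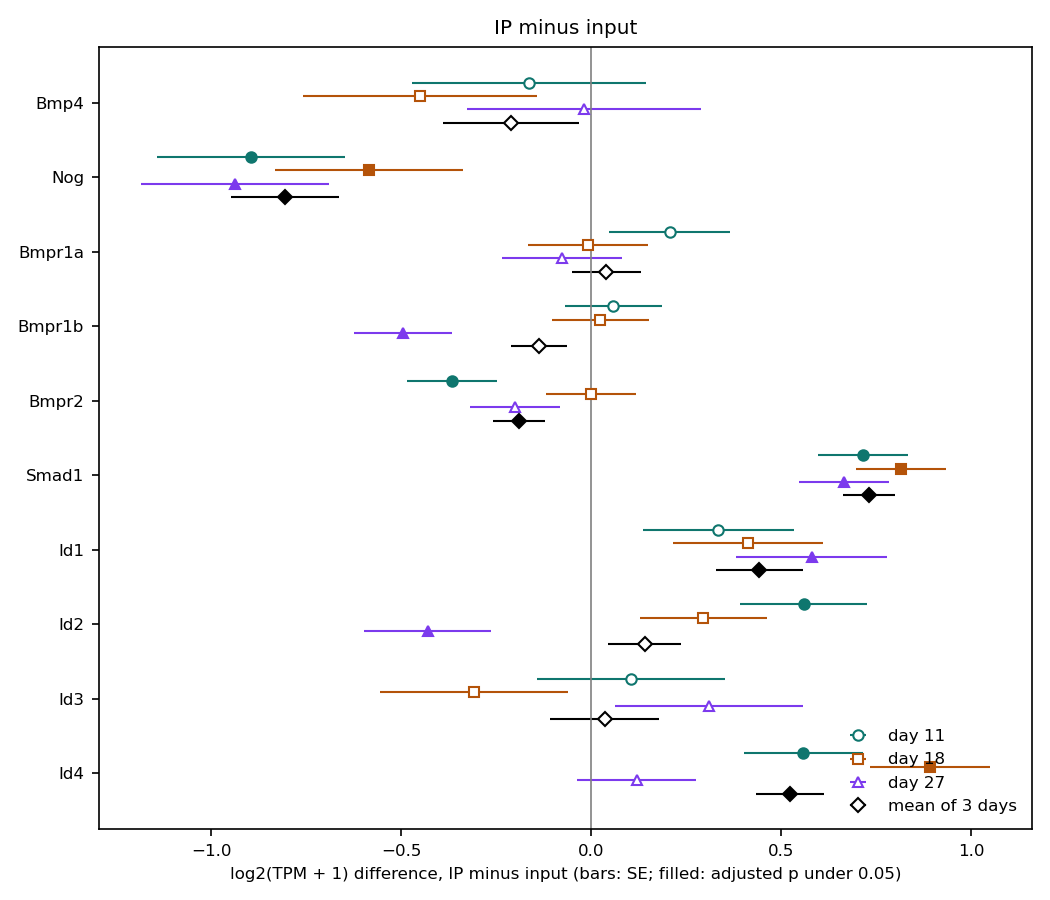
Difference in log2(TPM + 1), IP minus input, for the 10 genes at day 11, 18 and 27 and as the mean of the 3 days; bars are SE and filled symbols have an adjusted p under 0.05 by limma. Id2 runs from 0.56 at day 11 to -0.43 at day 27, while Smad1 and Nog keep their sign.

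The change over days within the IP asks how the 10 transcripts differed between treatment times. The labels do not give the event from which treatment time is counted. Each replicate letter occurs on 1 day only, so a difference between days cannot be told apart from one between sets of libraries. Id2 and Bmpr1b were lower at day 27 than at day 11, and the other 8 genes did not pass the test. These 2 of 10 genes stand against 15.3% of 17282 genes called (11.4% higher and 3.88% lower). Under median-of-ratios scaling, 39.2% of called genes were higher, against 1971 of 2642 as deposited. The Id2 averages on days 11, 18 and 27 were 187 ± 43.2, 129 ± 20.1 and 108 ± 8.80 TPM (SD, n = 4 each). Its day 11 libraries had 133, 235, 204 and 176 TPM, its day 18 libraries 149, 116, 143 and 108 TPM, and its day 27 libraries 102, 116, 115 and 98.5 TPM. All day 27 libraries were below all day 11 libraries, and day 18 overlapped both. The difference between day 27 and day 11 was -0.76 ± 0.16 (SE) with an adjusted p of 0.00805 by limma.

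The Bmpr1b averages in IP on days 11, 18 and 27 were 19.8 ± 2.47, 17.4 ± 1.86 and 13.9 ± 2.31 TPM (SD, n = 4 each). Its day 11 libraries had 17.4, 18.0, 21.3 and 22.4 TPM, its day 18 libraries 16.6, 16.0, 20.1 and 16.7 TPM, and its day 27 libraries 11.2, 13.3, 16.7 and 14.5 TPM. The day 27 libraries were all below the day 11 libraries. The share of all genes so separated between these days was not counted, for Id2 or for Bmpr1b. The difference was -0.48 ± 0.14 (SE) with an adjusted p of 0.0272 by limma. Leaving out the day 18 libraries ended its call, with an adjusted p of 0.0523. So did leaving out sedentary replicate a or b of day 11, running replicate e of day 27 or sedentary replicate e or f of day 27, with adjusted p of 0.0885, 0.0715, 0.0701, 0.0588 and 0.111. Id4 differed by -0.28 ± 0.12 with an adjusted p of 0.138, by -0.45 with an adjusted p of 0.0114 under median-of-ratios scaling, and by -0.40 with an adjusted p of 0.0438 without running replicate a of day 11. Over the same days, summed dividing-cell markers in IP ranged from 275 to 372 TPM on day 11, from 186 to 297 on day 18 and from 176 to 196 on day 27, with 8 of 10 lower at day 27 than at day 11. Stem cell markers, summed, ranged from 1217 to 1668 TPM on day 11, from 1308 to 1695 on day 18 and from 926 to 1351 on day 27, with 3 of 14 lower. Summed immature-neuron markers ranged from 2557 to 3839 TPM on day 11, from 2051 to 4689 on day 18 and from 1723 to 2728 on day 27, with 4 of 10 lower. Microglial markers, summed, ranged from 159 to 214 TPM on day 11, from 118 to 188 on day 18 and from 94.0 to 151 on day 27, with 3 of 10 lower. Summed mature granule neuron markers ranged from 1990.1 to 2173 TPM on day 11, from 2373 to 2872 on day 18 and from 2685 to 4030 on day 27, with 7 of 10 higher. The day 11 sums were below those of both later days, and days 18 and 27 overlapped. Over all genes tested between day 27 and day 11, 11.4% were called higher and 3.88% lower. The part of these lists in the Id2 and Bmpr1b results was not tested.

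Between day 18 and day 11 in IP, 0 of 10 genes were called by limma, against 5.66% of all genes, and Id2 had an unadjusted p of 0.00720 with a difference of -0.52 ± 0.16 (SE). Id2 alone was called there after median-of-ratios scaling or without running replicate a of day 11. Between day 27 and day 18 in IP, 0 of 10 were called, against 0.122% of all genes, and Bmpr1b alone had an unadjusted p under 0.05, at 0.0390. In input, 0 of 10 genes were called between day 27 and day 11, where 0% of 20462 genes were, and Id1 alone had an unadjusted p under 0.05, at 0.0329. Between day 18 and day 11 in input, 0 of 10 were called against 49.2% of all genes. Id4 alone had an unadjusted p under 0.05 there, at 0.0423, and Id2, Id4, Bmpr2 and Smad1 were called lower after median-of-ratios scaling. Without running replicate a of day 11, Id3 and Id4 were called, without sedentary replicate a Id4, and without sedentary replicate d of day 18 Bmpr2 and Bmp4. Between day 27 and day 18 in input, Id2 and Id4 were called higher, 2 of 10 against 37.1% of all genes (10.4% higher and 26.7% lower), by 0.48 ± 0.15 and 0.56 ± 0.18 (SE) with adjusted p of 0.0267 and 0.0299 by limma. The Id2 averages in input on days 11, 18 and 27 were 125 ± 15.2, 105 ± 16.7 and 147 ± 23.7 TPM, and those of Id4 were 113 ± 25.3, 86.7 ± 26.1 and 125 ± 20.1 TPM (SD, n = 4 each). Without sedentary replicate d of day 18, Bmpr2 was called as well, at 0.40 with an adjusted p of 0.0292. Both calls were lost without running or sedentary replicate c of day 18 or running or sedentary replicate e of day 27. Id2 was also lost without running replicate d of day 18 (adjusted p 0.0507), and Id4 without running replicate f (0.0892) or sedentary replicate f (0.0938) of day 27.

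Running against sedentary asks whether exercise moved the pathway. No gene of the 10 passed the test in either fraction. In IP, limma called 0 of 10 genes, against 0.00579% of 17282 genes (1 gene). At an unadjusted p under 0.05 it gave 3 of the 10 (Id4, Id3 and Bmpr1b) and 2453 of all genes. The difference was negative for 8 of the 10 genes, with a median of -0.23 over the 10 and -0.07 over all genes tested. Over all genes tested, 36.3% of the differences were positive.

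At day 11, Id4 in IP had 115 and 163 TPM in running mice and 188 and 203 TPM in sedentary mice. The day 18 values were 143 and 133 TPM in running mice and 193 and 162 TPM in sedentary mice. The day 27 values were 109 and 120 TPM in running mice and 171 and 146 TPM in sedentary mice. At each day both running libraries were below both sedentary libraries, although the ranges over all days overlapped. How many of all genes separate in this way was not counted. Over the days Id4 averaged 130 ± 19.9 TPM in running mice and 177 ± 21.5 TPM in sedentary mice (SD, n = 6 each). The difference was -0.44 ± 0.10 (SE), with an unadjusted p of 0.000545 and an adjusted p of 0.145 by limma, and it lay between -0.53 and -0.36 when each IP library was left out in turn, with adjusted p from 0.0542 to 0.476. A fit with the replicate letter as a block, which the labels do not make a pairing, gave an adjusted p of 0.0215. It was -0.37 under median-of-ratios scaling, with an adjusted p of 0.121.

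At day 11, Id3 in IP had 13.8 and 11.6 TPM in running mice and 21.2 and 22.8 TPM in sedentary mice. On day 18 these were 12.6 and 16.0 TPM in running mice and 20.4 and 13.9 TPM in sedentary mice. On day 27 these were 14.9 and 15.2 TPM in running mice and 17.0 and 27.4 TPM in sedentary mice. The groups were apart at days 11 and 27 and overlapped at day 18. The difference was -0.49 ± 0.14 (SE) with an adjusted p of 0.193 by limma. Bmpr1b in IP averaged 15.4 ± 2.64 TPM in running mice and 18.6 ± 3.11 TPM in sedentary mice (SD, n = 6 each), and the groups did not overlap within any of the 3 days. The share of all genes without such overlap was not counted for Bmpr1b either. Its difference was -0.26 ± 0.11 (SE) with an adjusted p of 0.315. Id2 averaged 142 ± 48.3 TPM in running mice and 141 ± 41.8 TPM in sedentary mice, a difference of 0.01 ± 0.13 (SE) with an adjusted p of 0.989. Bmpr2 and Smad1 differed by 0.03 ± 0.09 and -0.03 ± 0.10, and Bmp4, Nog, Bmpr1a and Id1 by -0.27 ± 0.21, -0.37 ± 0.23, -0.21 ± 0.12 and -0.19 ± 0.16 (SE). An F test in limma for a dependence of the running difference on the day called 0 of the 10 genes, against 0.00579% of all genes, with 0 at an unadjusted p under 0.05 and a lowest adjusted p of 0.940.

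Astrocyte and stem cell markers went the same way in IP. Of 12 astrocyte markers 11 had negative running differences, with a median of -0.36, and of 14 stem cell markers 12 did, with a median of -0.31, none of them called. Over all genes tested in IP, 36.3% of the differences were positive, with a median of -0.07. Summed astrocyte markers ranged from 2775 to 4220 TPM in IP of running mice and from 3766 to 5386 TPM in IP of sedentary mice. Summed stem cell markers ranged from 926 to 1662 TPM in IP of running mice and from 1203 to 1695 TPM in IP of sedentary mice. Immature-neuron markers had positive differences for 9 of 10. Endothelial cells also use Id1 and Id3, and 11 of 12 endothelial markers were negative in IP with a median of -0.10, their sum ranging from 56.0 to 101 TPM in running mice and from 68.6 to 129 TPM in sedentary mice. None of these lists had a marker at 0 in all libraries of a group, and their part in the Id4 and Id3 values was not tested.

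The balance between the 2 abundant Id genes does not depend on scaling, since both come from the same library. In IP the ratio of Id4 to Id2 was 0.864 and 0.692 in running mice and 0.925 and 1.16 in sedentary mice at day 11. At day 18 it was 0.963 and 1.14 in running mice and 1.35 and 1.51 in sedentary mice, and at day 27 it was 1.07 and 1.04 in running mice and 1.49 and 1.48 in sedentary mice. Within each day both running libraries were below both sedentary libraries. The ratio averaged 0.961 ± 0.163 in running mice and 1.32 ± 0.233 in sedentary mice in IP, and 0.833 ± 0.265 in running mice and 0.906 ± 0.130 in sedentary mice in input (SD, n = 6 each). The ratio was formed after the values were seen and is given without a test. With running in IP, Id4 differed by -0.44 and Id2 by 0.01, so the ratio is not separate from the Id4 values above. How many other pairs of genes separate in this way was not counted.

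**Figure D4:**
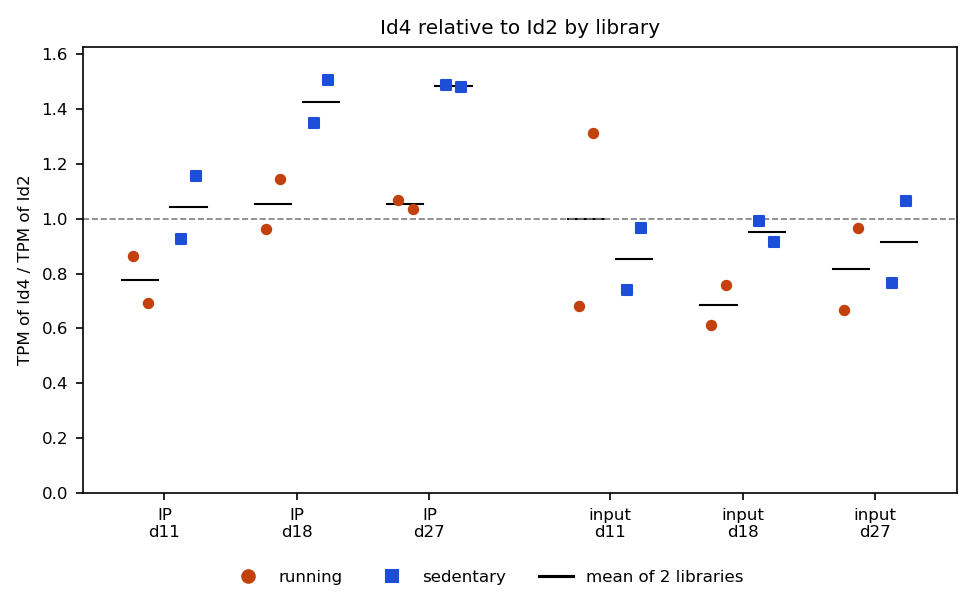
Ratio of Id4 TPM to Id2 TPM in each library, with IP left of input and running (circles) left of sedentary (squares) within each day; the short line is the mean of 2 libraries and the dashed line marks equal levels. In IP both running libraries lie below both sedentary libraries at each day, and the running mean is 0.961 against 1.32 in sedentary mice. The ratio was formed after the values were seen, was not tested and is not separate from the Id4 values.

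In input, limma called 0 of 10 genes for running against sedentary, where 0% of 20462 genes were called. At an unadjusted p under 0.05 it gave 3 of the 10 (Smad1, Id1 and Id4) and 858 of all genes. Of the 10 differences 9 were negative, all but Bmp4, with a median of -0.24 against 0.00 over all genes, of which 50.0% were positive. Smad1 had 19.6, 21.0, 14.7, 18.4, 22.6 and 21.8 TPM in running mice and 24.5, 24.3, 24.1, 23.0, 24.6 and 22.4 TPM in sedentary mice. The groups overlapped at day 27 and were apart at days 11 and 18. The Smad1 difference was -0.27 ± 0.09 (SE) with an unadjusted p of 0.0116 and an adjusted p of 0.953. Id4 differed by -0.37 ± 0.14 and Id1 by -0.42 ± 0.16 (SE), each with an adjusted p of 0.953 by limma. In the same libraries 11 of 12 astrocyte markers had negative differences, with a median of -0.08, and their part in these values was not tested.

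Id1 in input was most apart at day 18, with 3.94 and 5.79 TPM in running mice and 14.0 and 12.0 TPM in sedentary mice. At day 27 it had 4.47 and 5.03 TPM in running mice and 8.30 and 5.42 TPM in sedentary mice. At day 11 the order was the opposite, with 10.6 and 8.88 TPM in running mice and 8.44 and 5.62 TPM in sedentary mice. The day 18 difference of -1.27 ± 0.27 (SE) had an unadjusted p of 0.000619 and an adjusted p of 0.547 by limma, and the F test between days had an unadjusted p of 0.00325 and an adjusted p of 0.998. Smad1, Id4 and Nog also had an unadjusted p under 0.05 by limma in input at day 18, with differences of -0.49, -0.67 and -0.79, none of them called. Over all 20462 genes tested, 1210 had an unadjusted p under 0.05 in that comparison. The olfactory receptor genes averaged 12.3 TPM in the input libraries of that day. Choroid plexus markers, summed, reached 654 TPM in 1 running input library of day 18, and their part in these values was not tested. The running difference in IP minus that in input was called for 0 of the 10 genes by limma, 0 had an unadjusted p under 0.05, and 0% of 19507 genes were called (1166 at an unadjusted p under 0.05).

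**Figure D5:**
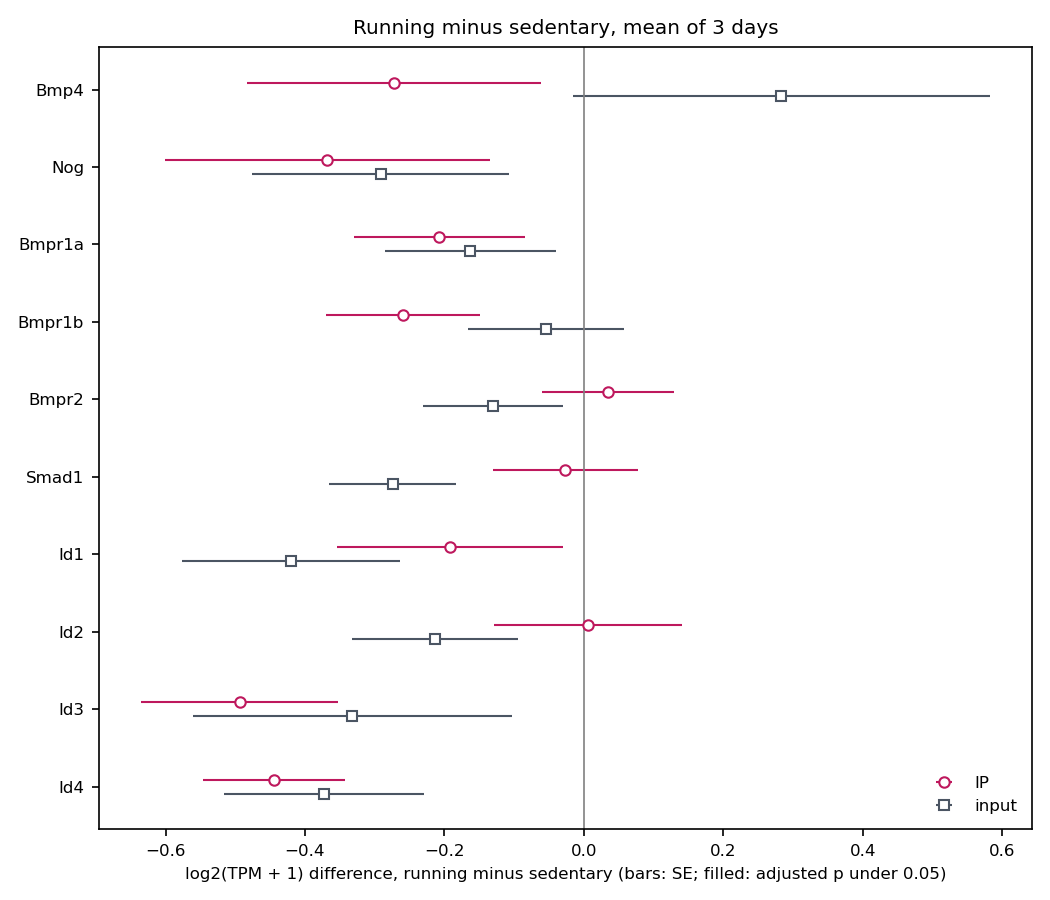
Difference in log2(TPM + 1), running minus sedentary, averaged over the 3 days, for the 10 genes in IP (circles) and input (squares); bars are SE, and open symbols have an adjusted p of 0.05 or more by limma. Id3 and Id4 in IP lie at -0.49 and -0.44, and no symbol is filled.

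A further 53 genes of the pathway and its partners were counted from lists chosen by function. In IP against input, 24 of the 50 tested were higher and 13 lower, with a median of 0.18 against 0.12 over all genes, on the deposited scale. Over all genes 41.4% were higher and 28.5% lower, so these shares were near the background, and each list count below stands beside the same background. Of 9 BMP ligands tested, 5 were lower in IP and 2 higher. Bmp3 averaged 1.90 ± 0.541 TPM in IP and 4.59 ± 2.29 TPM in input, and Gdf10 averaged 13.5 ± 3.24 TPM in IP and 23.4 ± 3.97 TPM in input (SD, n = 12 each), with differences of -0.87 and -0.77. Bmp5 was lower in IP by 0.95 and Bmp8b was higher by 0.59. In input, Bmp3 and Bmp5 were higher at day 18 than at day 11 by 1.12 and 1.17. Their adjusted p was 0.00180 and 0.00371 by limma, where 49.2% of all genes were called. The Bmp5 difference between IP and input varied with the day (adjusted p 0.00963 by the F test in limma). Day 18 input libraries had the highest olfactory receptor level, and its part in these values was not tested.

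Of 10 other receptors and co-receptors, 6 were higher in IP and none lower, beside 41.4% higher and 28.5% lower over all genes. Neo1, a receptor that binds the BMP co-receptors of the repulsive guidance family, averaged 120 ± 20.7 TPM in IP and 39.9 ± 4.62 TPM in input, a difference of 1.56. Rgma, one of these co-receptors, averaged 57.8 ± 10.3 TPM in IP and 22.1 ± 3.87 TPM in input, a difference of 1.34. The type 1 receptor Acvr1 averaged 67.9 ± 9.35 TPM in IP and 44.8 ± 5.88 TPM in input, a level above that of Bmpr1a in IP. The type 2 receptor Acvr2b differed by 0.95.

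Of 12 secreted inhibitors and modulators, 5 were higher in IP and 3 lower, and over all genes 41.4% were higher and 28.5% lower. Bmper, an extracellular BMP modulator, averaged 15.1 ± 4.29 TPM in IP and 3.85 ± 1.42 TPM in input, a difference of 1.74, and the antagonist Chrd averaged 19.8 ± 5.02 TPM in IP and 10.9 ± 2.24 TPM in input. Fstl4 was higher by 0.77. Of 9 other SMADs and regulators, 4 were higher and 3 lower, beside the same shares of all genes. Smad5, a close relative of Smad1, averaged 37.1 ± 4.53 TPM in IP and 21.1 ± 2.61 TPM in input, a difference of 0.79, next to 0.73 for Smad1. The shared partner Smad4 was higher by 0.52 and the ubiquitin ligases Smurf1 and Smurf2, which mark SMADs for degradation, by 0.87 and 0.55.

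Of 10 helix-loop-helix partners and relatives of Id proteins, 7 were higher in IP and 2 lower, beside the same 41.4% and 28.5% of all genes. Tcf3, an E protein that Id proteins bind, averaged 48.7 ± 7.11 TPM in IP and 17.5 ± 3.71 TPM in input, a difference of 1.44. Neurog2 and Neurod1, which drive neuronal differentiation, differed by 2.30 and 1.68. Some genes of this list, Hes5 and Neurod1 among them, also stand among the stem cell and immature-neuron markers above, so these counts are not separate.

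Between day 27 and day 11 in IP, 7 of 49 pathway genes tested were called, 3 higher and 4 lower, near the 15.3% of all genes called (11.4% higher and 3.88% lower). Neurog2, Neurod1 and Tcf3, named after their values were seen, fell by 0.71, 0.62 and 0.39. Fstl4, a follistatin-like secreted protein, averaged 44.4 TPM at day 27 and 16.3 TPM at day 11, a difference of 1.40 ± 0.13 (SE) with an adjusted p of 4.95e-05 by limma, and Chrd and the SMAD repressor Ski were higher by 0.63 and 0.61. Running against sedentary called 0 of 49 pathway genes in IP and 0 of 50 in input by limma. The lowest unadjusted p in IP was 0.00101 for Acvr2b, with a difference of -0.61 ± 0.15 (SE) and an adjusted p of 0.161, and in input 0.0128 for Smad5, with a difference of -0.26 ± 0.09 (SE) and an adjusted p of 0.953.

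Genes whose pattern over the 24 libraries was most like that of each Id gene were found by the root mean square difference of log2(TPM + 1) after centring each gene, among 11665 other genes with a mean of at least 5 TPM. For Id4 they were Stag1, Wnk1 and Lonrf3, at 0.18, 0.18 and 0.19, where Id4 itself varied by 0.43 around its mean. For Id2 they were Sh3glb1, Cd164 and Fam107b, each at 0.20 or 0.21 against 0.34 for Id2 itself. For Id1 they were Gusb, S100a16 and Prmt2, at 0.27, 0.28 and 0.29, and for Id3 they were Ftl1, Glt25d2 and Haus2, at 0.26, 0.26 and 0.27, where Id1 and Id3 varied by 0.45 and 0.39. None of the 4 genes had another Id gene among its nearest 3.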

How the data were processed

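RNA of the RiboTag IP and of dentate gyrus input was sequenced after a SMARTer stranded total RNA library preparation, per the labels' protocols. The authors deposited 1 table of TPM values, 23306 genes by 24 libraries. The tool was RSEM and the build mm10, per the submitters' processing notes; the sources used here do not give the aligner, annotation or strand setting. Each column sums to a fixed total, so depth is unknown and no counting interval was computed. Coordinates came from GENCODE M21 (GRCm38, the mm10 build), upstream sequences from RefSeq (GRCm38.p6).

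Genes averaging 1 TPM or more in a fit were tested on log2(TPM + 1) with limma 3.58.1 in R 4.3.3 (moderated, with mean-variance trend and robust settings), two-sided, Benjamini-Hochberg over all genes tested, at 0.05. IP against input used all 24 libraries and 12 group means; running and day contrasts used the 12 libraries of a fraction. Scripts were tested on simulated data. The members, gene lists and tests were chosen with earlier results of these data known. All members are named; of each pathway list, up to 4 genes with the lowest p in IP against input, and up to 4 in other contrasts. Some genes that this rule picks are not reported here.

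Replicate letters recur between running and sedentary libraries. Alternatives were other pseudocounts, filters, scaling, a replicate block and libraries left out.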

Additional observations from a re-analysis of the deposited data

Results flagged for a closer look

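The difference between IP and input varied with the day for 3 of the 10 genes by an F test in limma across all genes, where 37.4% of genes passed. Id2 had an adjusted p of 0.00836: its log2(TPM + 1) difference was 0.56 at day 11, 0.30 at day 18 and -0.43 at day 27. Id4 had an adjusted p of 0.0286, with differences of 0.56, 0.89 and 0.12. Bmpr1b had an adjusted p of 0.0322, with differences of 0.06, 0.02 and -0.50. Day 18 input libraries had a mean olfactory receptor level of 12.3 TPM, above both other days. Without the day 18 libraries, a moderated t test in limma of day 27 against day 11 gave adjusted p of 0.0660, 0.374 and 0.171. Whether that background bears on the 3 genes was not tested, since leaving out day 18 also removes that day from the comparison.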

How the results depend on the processing

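Over all values and alternatives, 5270 values kept their side of the threshold, 182 of them uncalled values that changed sign, 79 were no longer past it, 36 newly passed it and 1 reversed. The reversal was Bmpr1a in IP against input, at -0.24 under median-of-ratios scaling, which moved the median of all genes by -0.24; the cause was not tested. The scaling gave counts of called genes of 4 for day 18 against day 11 in input, 1 in IP for the same days, and 3 for IP against input at day 11. Without the letter a libraries of day 11 the counts were 2 for day 18 against day 11 in input and 1 for day 27 against day 11 in IP. Without the day 18 libraries they were 1 for day 27 against day 11 in IP and 0 for IP against input by day, where only days 11 and 27 were left. A fit of all libraries gave 1 for day 18 against day 11 in input, and limma with neither the trend nor the robust setting gave 1 for day 27 against day 18 in input. The cause was not tested.

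With 1 library left out at a time, counts ranged from 0 to 2 for day 18 against day 11 in input, 0 to 1 in IP, 1 to 3 for day 27 against day 11 in IP, 0 to 3 for day 27 against day 18 in input, 3 to 6 for IP against input at day 11, 2 to 4 at day 18, 3 to 5 at day 27, 5 to 6 for IP against input over all days and 1 to 3 for its dependence on the day.

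With a replicate block by letter, running against sedentary in IP called 1 of the 10 genes, Id4, with an adjusted p of 0.0215, and 440 of all genes against 1 without the block. Deviations of same-letter libraries correlated at 0.197, 0.0484 and 0.0568 in IP and 0.268, 0.0795 and 0.0816 in input at days 11, 18 and 27. With 2 libraries per group each day gives 1 value, so these correlations cannot settle whether the letters pair libraries. The labels do not make the letters a pairing, and none was assumed in the main fits. The block by letter ended the limma call of Nog in IP against input at day 18, with an adjusted p of 0.0569. A block by title code, chosen after seeing the data, left 4 of 5 limma calls in IP against input. It ended that of Bmpr2 (adjusted p 0.0602) and 4 calls by day. Deviations of IP and input libraries with the same code correlated at values from -0.278 to -0.00829. These values likewise cannot settle whether the codes pair libraries, and the main fit treated the libraries as separate. The block could not be fitted for contrasts between days, where letters do not recur. Over all genes, running against sedentary in IP called 3 genes under median-of-ratios scaling, 5 with a pseudocount of 5, 8 from a fit of all libraries and 11 at a mean of at least 5 TPM. Bmp4 and Nog leave the test under a mean of at least 5 TPM.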
